A study of Mus musculus with 10 samples.

Results

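The tumour necrosis factor (TNF) ligand and receptor superfamilies were followed in whole ear skin of 10 C57Bl/6 mice, with 1 RNA-seq library per mouse. Members were chosen by symbol alone: numbered Tnfsf and Tnfrsf genes, and the family genes known by other names (Tnf, Lta, Ltb, Ltbr, Cd27, Cd40, Cd40lg, Cd70, Fas, Fasl, Eda, Edar, Eda2r and Ngfr). They came to 46 of the 41388 genes in the files: 18 ligands, 27 receptors (decoy receptors included) and 1 antisense gene, Tnfsf13os. Counts were high enough to test 40 of them: 14 ligands, 25 receptors and the antisense gene. The 4 Littermate mice carry the genotype label WT. The 6 Experimental mice carry the genotype label NaV1.8+ Jak1F/F, while the series text calls them NaV1.8+ Il4raF/F. That text speaks of MC903 for the Experimental mice and of 1 nM MC903 on the skin, daily for 12 days, for the littermates. For all 10 libraries, Experimental ones included, the dose is recorded as 1 nM and the day as 12. MC903 is calcipotriol, a vitamin D analogue that inflames mouse skin, and no untreated group was analysed here. NaV1.8 is a sodium channel of pain and itch neurons, whose cell bodies lie in ganglia outside the ear. The labels name no recombinase, no sex and no age, while Y-linked RNA in every library marks all 10 mice as male.

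TNF ligands are mostly trimers anchored in the cell membrane, some of which are shed by proteases such as ADAM17. Their receptors recruit TRAF adaptors or death-domain proteins and signal to NF-kB, to kinases or to caspases, and decoy receptors bind ligand without signalling. In skin, TNF drives keratinocyte and endothelial inflammation, OX40 and CD40 tune T cell and antigen-presenting cell contacts, and ectodysplasin shapes hair follicles.

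Total counts ran from 12865459 to 14324433 in Littermate libraries and from 11520348 to 41935183 in Experimental libraries. A count of 3 was worth 0.0715 to 0.260 CPM (counts scaled to a library of 1e6). The labelled tissue matched its markers: the 5 keratinocyte markers summed to 26900 to 31200 CPM in Littermates and 24300 to 32100 CPM in Experimental libraries. Of the 16830 genes tested between the groups, 3 differed at an adjusted p under 0.05 (0.0178%). Leaving out Littermate 2 brought this to 343 genes and leaving out Experimental 6 to 28. Values of single members without these libraries are given where they bear on them. The p-values measure the spread between these mice, whose litters the labels do not give.

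Levels of different genes were compared as reads per kilobase, scaled to library size as in CPM (RPKM), over the 10 libraries, computed from normalized CPM and the deposited gene length. The receptor of highest level was Tnfrsf1a, the main TNF receptor of most tissues, at a mean of 64.3 RPKM. Its lowest library, 60.1 RPKM, was above the highest library of every other member. Ltbr, the lymphotoxin beta receptor that organises lymphoid tissue, followed at 41.7 RPKM. Next came Tnfrsf12a, the TWEAK receptor, at 33.6 RPKM and Tnfrsf19, an orphan receptor of the skin and hair follicle also called TROY, at 27.4 RPKM. Below Tnfrsf19 the next level was that of Tnfrsf18, which encodes GITR, at 16.7 RPKM, with no overlap between the libraries of these genes. Every other pair of neighbours in the order of levels overlapped in range. Ligands lay lower, with a median of 1.01 RPKM from 0.0472 for Cd70 to 3.89 for Tnf, whereas receptors had a median of 2.72 RPKM from 0.0345 to 64.3. The next ligands were Ltb at 3.76 RPKM and Tnfsf12 at 3.74 RPKM, both within the range of Tnf.

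**Figure D1:**
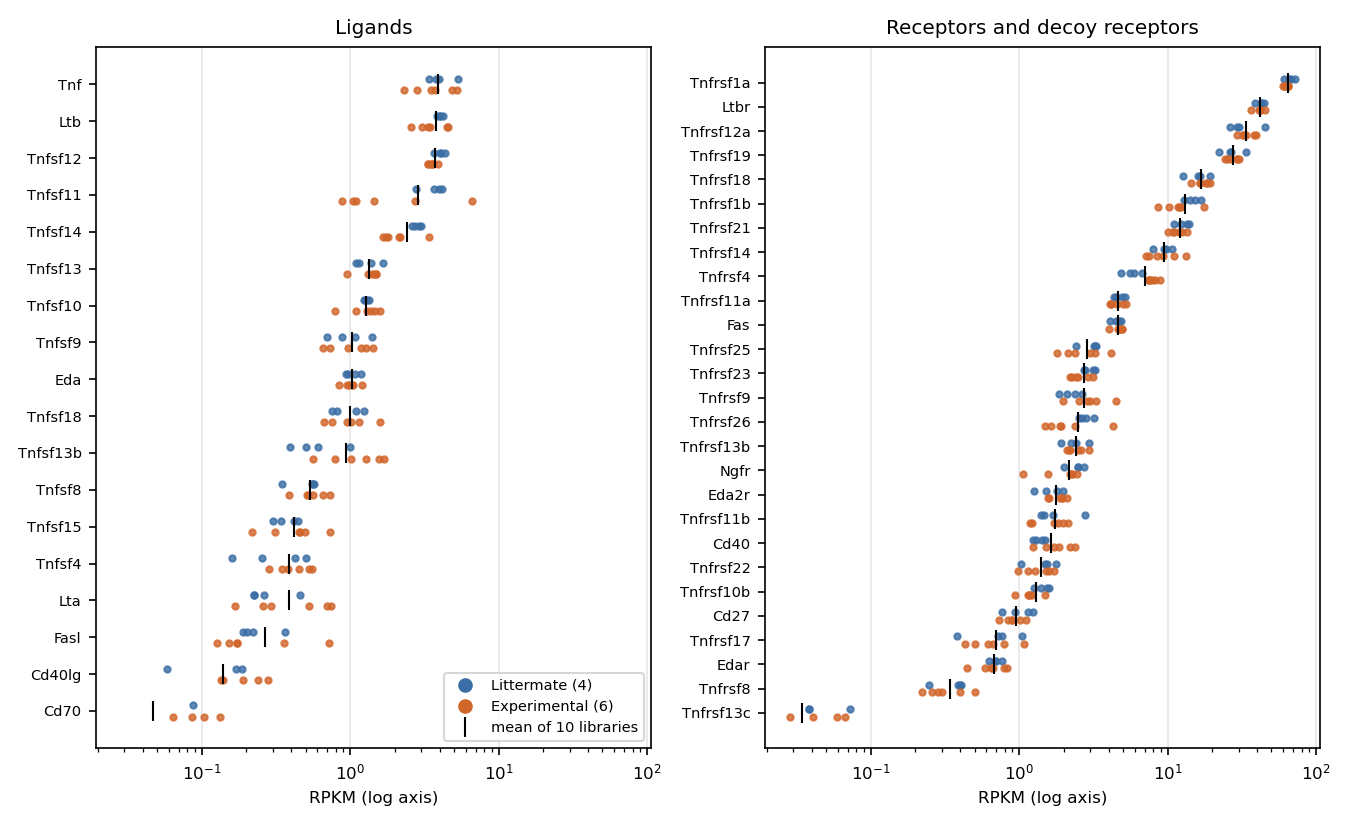
Levels in RPKM on a log axis of the 18 ligands (left) and 27 receptors (right), in order of the mean, with 1 point per library (Littermates blue, Experimental orange) and a black tick at the mean of 10 libraries. Libraries at 0 are not drawn. Tnfrsf1a leads at 64.3 RPKM, above 3.89 RPKM for the highest ligand, Tnf.

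The comparison asks whether RNA of the family differed between Experimental and Littermate skin. No member passed the test across all genes (edgeR quasi-likelihood test, adjusted p under 0.05), against 0.0178% of all genes. At an unadjusted p under 0.05, 3 of 40 members (7.5%) were higher in Experimental skin, namely Tnfrsf4, Cd40 and Tnfsf13b, against 3.65% of all genes. None were lower, against 8.1%. With 3 and 0 members these shares are counts of few genes. Log2 fold changes of the tested members ran from -0.69 for Tnfsf11 to 0.87 for Tnfsf13b. Their median was -0.053, beside -0.0013 for all genes, and 23 of 40 (57.5%) were negative, beside 50.4%. In bulk skin, fewer cells of a type and less RNA per cell cannot be told apart.

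For most members the data bound the difference closely. The 95% interval of the log2 fold change excluded a 2-fold difference either way for 37 of 40 members and a 1.5-fold difference for 24. The 3 exceptions to the 2-fold bound were Tnfsf4 (-0.32 to 1.07), Tnfsf13b (0.11 to 1.63) and Tnfsf11 (-2.0 to 0.63). DESeq2 on the same counts passed 1 member, Tnfrsf4, with 1.35% of all genes passing. Limma voom with library quality weights passed none, with 0.339% of all genes passing.

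**Figure D2:**
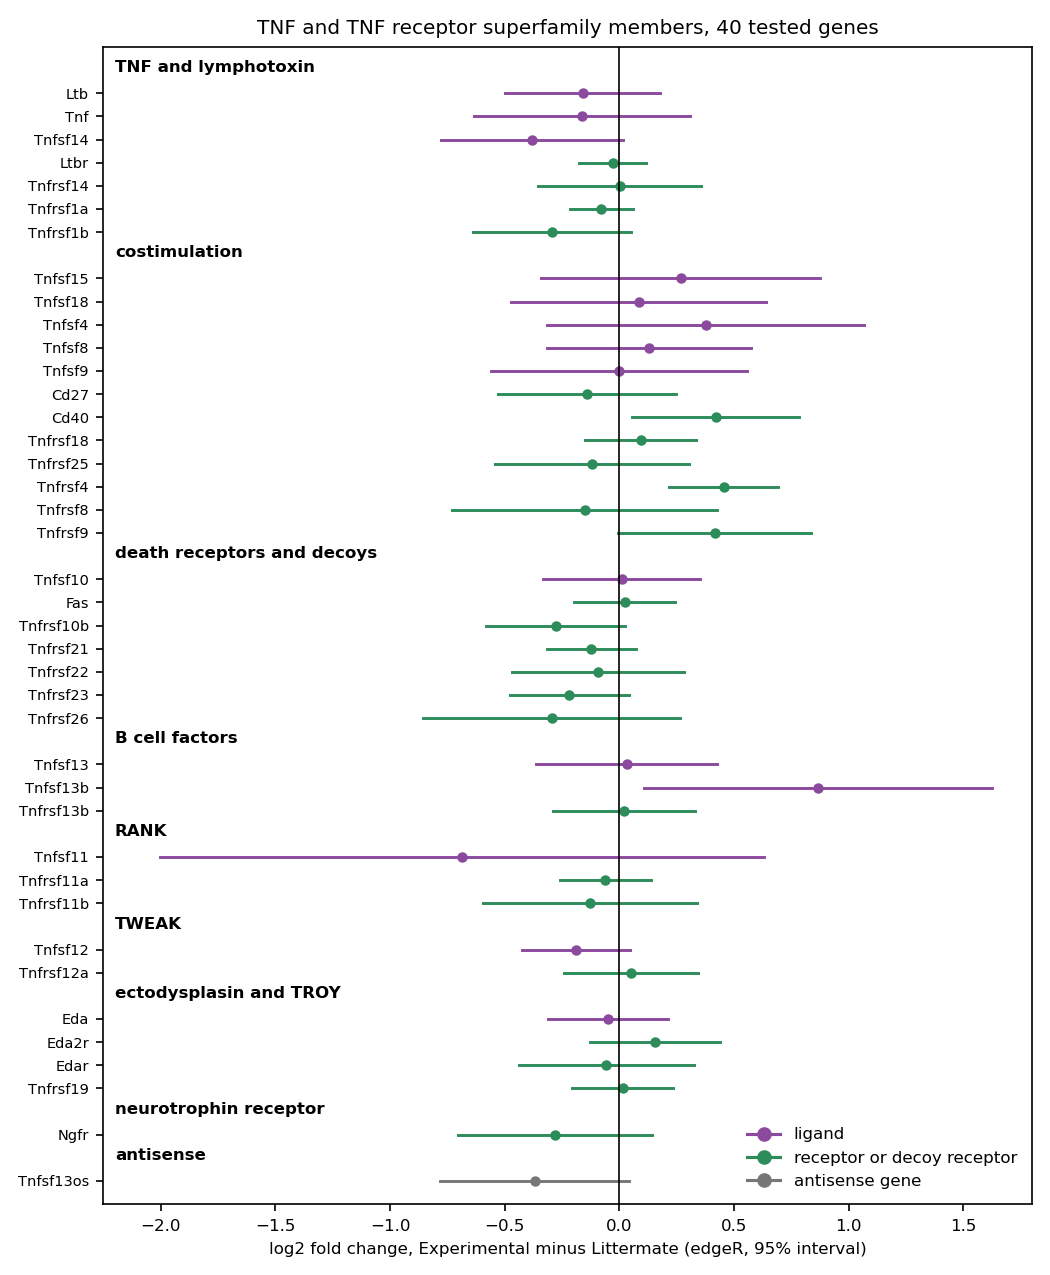
Log2 fold change of each of the 40 tested members (Experimental minus Littermate, edgeR) with its 95% interval, grouped by branch, with ligands in purple, receptors in green and the antisense gene in grey. All intervals except those of Tnfrsf4, Cd40 and Tnfsf13b cross 0, and Tnfsf11 has the widest, from -2.0 to 0.63.

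No gene of the TNF and lymphotoxin branch passed in the fit of all 10 libraries. Tnf (ENSMUSG00000024401, mm10 chromosome 17, 35199381 to 35202007), the founding cytokine of the family, had 8.75, 6.22, 6.53 and 5.52 normalized CPM in the 4 Littermates and 6.10, 5.72, 3.77, 7.91, 4.62 and 8.54 CPM in Experimental libraries 1 to 6. The groups overlapped widely, with 4 of 6 Experimental libraries inside the Littermate range and 2 below it. Means were 6.76 ± 1.39 CPM in Littermates (SD, n = 4) against 6.11 ± 1.84 CPM (SD, n = 6), a log2 difference of -0.16 whose 95% interval ran from -0.63 to 0.31 (edgeR, adjusted p = 0.82). Tnfrsf1a (ENSMUSG00000030341, chromosome 6, 125349362 to 125362484), which carries a death domain, had 175, 157, 169 and 186 CPM in Littermates and 167, 160, 156, 158, 167 and 168 CPM in Experimental libraries 1 to 6. All 6 Experimental libraries lay below 3 of the 4 Littermates, and 1 lay below the fourth as well. Its log2 fold change was -0.08 ± 0.06 (SE), interval -0.22 to 0.06 (edgeR, adjusted p = 0.677).

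Tnfrsf1b (ENSMUSG00000028599, chromosome 4, 145213463 to 145246870) encodes TNFR2, the TNF receptor without a death domain, found on leukocytes and endothelium. It had 58.3, 48.9, 54.1 and 63.6 CPM in Littermates. Experimental libraries 1 to 6 had 45.3, 44.5, 38.9, 32.9, 46.6 and 66.8 CPM. Thus 5 Experimental libraries lay below every Littermate and Experimental 6 lay above every Littermate. On the log2 scale the difference was -0.29 ± 0.16 (SE), interval -0.64 to 0.05 (edgeR, adjusted p = 0.506). Without Experimental 6 it was -0.43 (edgeR, adjusted p = 0.0942). Without both Littermate 2 and Experimental 6 it was -0.49 and passed (edgeR, adjusted p = 0.0276), as did 3.34% of all genes in that fit. Tnfrsf1b was the 1 member that did. These were its lowest Littermate and its highest Experimental library, so leaving both out widens the difference by construction. That pass is therefore no support for a difference.

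For the other tested genes of this branch the 95% interval included 0. Tnfsf14 encodes LIGHT, a ligand of LTBR and HVEM made by activated T cells. It had 4.84, 5.41, 5.04 and 5.60 CPM in Littermates, 3.10 to 4.03 CPM in Experimental 1 to 5 and 6.33 CPM in Experimental 6. The pattern across libraries was that of Tnfrsf1b, with 5 libraries below every Littermate and 1 above, and the log2 fold change was -0.38 ± 0.19 (SE; edgeR, adjusted p = 0.448), and -0.55 without Experimental 6 (adjusted p = 0.0942). Ltb, the membrane partner of lymphotoxin alpha, had a log2 difference of -0.16 (edgeR, adjusted p = 0.738), Ltbr -0.03 (0.907) and Tnfrsf14, which encodes HVEM, 0.0018 (0.999). Lta, which encodes lymphotoxin alpha, was not tested, with 22 counts over the Littermates and 86 over the Experimental libraries.

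The promoter of Tnfrsf1b is shown with the letters of a STAT site. The reason is that the genotype label names a Janus kinase and the series text the IL-4 receptor. Both act through STAT factors. It is the RefSeq GRCm38.p6 window of 300 bases at chr4:145246821-145247120, minus strand, from 250 bases before to 50 after the start. Motifs were searched on both strands, and capitals mark a match to TTCNNNGAA.
Tnfrsf1b promoter: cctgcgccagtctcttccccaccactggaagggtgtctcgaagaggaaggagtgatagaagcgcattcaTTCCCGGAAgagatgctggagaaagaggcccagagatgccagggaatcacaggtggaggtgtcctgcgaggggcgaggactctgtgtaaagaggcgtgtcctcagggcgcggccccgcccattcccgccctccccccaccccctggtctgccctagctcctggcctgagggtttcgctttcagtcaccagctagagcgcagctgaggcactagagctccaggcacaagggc
The same 9 letters occur in 9 of the 39 member promoters found for 35 of the 46 members (23.1%), beside 8.3% of 32851 promoters in all. The genes that hold it, Fas, Lta, Ltb, Tnfrsf18, Tnfrsf19, Tnfrsf1a, Tnfrsf1b, Tnfrsf25 and Tnfrsf9, had log2 fold changes of both signs among those tested, from -0.29 for Tnfrsf1b to 0.42 for Tnfrsf9. The windows of Tnf, Tnfrsf4 and Tnfsf11 hold no match to any of the 3 motifs reported here. A STAT motif with a longer spacer than the 3 bases of TTCNNNGAA was also searched and is not reported. A match in letters is a description of the window, not a binding site.

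In the costimulatory branch, which tunes lymphocytes and their contacts with antigen-presenting cells, Tnfrsf4 was the member whose groups did not overlap. Tnfrsf4 (ENSMUSG00000029075, chromosome 4, 156013843 to 156016612) encodes OX40, a receptor of activated and regulatory T cells. It had 7.66, 6.59, 9.23 and 8.09 CPM in Littermates. Experimental libraries 1 to 6 had 10.1, 11.3, 10.7, 10.2, 10.4 and 12.2 CPM. All 6 lay above the highest Littermate, which held for 1 of 40 members and 0.761% of all genes. No member had all 6 Experimental libraries below every Littermate, against 1.35% of all genes. Means were 7.89 ± 1.09 CPM in Littermates (SD, n = 4) against 10.8 ± 0.81 CPM (SD, n = 6), and the log2 fold change was 0.46 ± 0.11 (SE), interval 0.22 to 0.69. It did not pass in edgeR (adjusted p = 0.121) and did in DESeq2 (log2 fold change 0.46, adjusted p = 0.0209). Without Experimental 6 the value was 0.42 (edgeR, adjusted p = 0.113), and without Littermate 2 it was 0.38 (adjusted p = 0.101). The 8 T cell markers summed to 42.2 to 50.7 CPM in Littermates and 39.6 to 47.5 CPM in Experimental libraries, none was at 0 in all libraries and none of the 8 passed the test. Their median log2 fold change was 0.15, and at an unadjusted p under 0.05 (edgeR) 1 was lower and 0 were higher. The part of cell numbers in the Tnfrsf4 value was not tested. Tnfsf4, its ligand OX40L, stood at 0.619 ± 0.291 CPM in Littermates (SD, n = 4) against 0.784 ± 0.197 CPM (SD, n = 6), and the log2 difference was 0.38 (edgeR, adjusted p = 0.693).

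Cd40 (ENSMUSG00000017652, chromosome 2, 165055627 to 165072948) encodes the receptor through which T cells license dendritic cells and B cells. Littermates had 4.84, 5.05, 4.19 and 4.43 CPM. Experimental libraries 1 to 6 had 7.44, 6.34, 5.17, 4.24, 5.85 and 8.07 CPM. Experimental 4 lay within the Littermate range and the other 5 lay above it. The log2 fold change was 0.42 ± 0.17 (SE), interval 0.06 to 0.79 (edgeR, adjusted p = 0.347), and 0.34 without Experimental 6 (adjusted p = 0.383). The 5 dendritic and Langerhans cell markers, none at 0 in all libraries, summed to 61.6 to 69.6 CPM in Littermates and 62.8 to 79.6 CPM in Experimental libraries. Their median log2 fold change was 0.34, and 2 of the 5 were higher at an unadjusted p under 0.05 while none passed. The part of cell numbers in the Cd40 value was not tested. Its ligand gene Cd40lg had 7 counts over the Littermates and 32 over the Experimental libraries and was not tested.

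Tnfrsf9, which encodes 4-1BB, is described here because its values were seen to run near those of Cd40. It had 5.08, 6.44, 5.75 and 7.24 CPM in Littermates and 7.83, 8.15, 5.41, 6.93, 8.90 and 12.2 CPM in Experimental libraries 1 to 6. Experimental libraries 3 and 4 lay within the Littermate range and 4 lay above it. The fitted log2 difference was 0.42 ± 0.20 (SE; edgeR, adjusted p = 0.431), and 0.27 without Experimental 6 (adjusted p = 0.506). Its second RefSeq start has the densest set of matches among the promoters shown, all in capitals. They are the NF-kB consensus (by name), TTCNNNGAA and the AP-1 letters TGANTCA. The NF-kB consensus was searched on both strands and found on the plus strand, in overlapping copies. The window is chr4:150927749-150928048, plus strand, of the same length and build.
Tnfrsf9 promoter, second start: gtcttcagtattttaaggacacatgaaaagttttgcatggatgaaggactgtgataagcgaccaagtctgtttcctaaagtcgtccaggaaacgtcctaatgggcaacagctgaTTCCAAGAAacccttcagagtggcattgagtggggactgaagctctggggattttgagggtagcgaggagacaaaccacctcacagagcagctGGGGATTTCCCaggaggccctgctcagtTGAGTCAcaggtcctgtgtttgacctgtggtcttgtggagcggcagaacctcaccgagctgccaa
The NF-kB consensus occurs in 4 of 39 member promoters (10.3%) beside 5.8% of all, and TGANTCA in 7 of 39 (17.9%) beside 7.81%. The promoter windows of Tnfsf13b overlap and share the same TGANTCA site, so the 7 windows hold fewer separate sites and genes. The first RefSeq start of Tnfrsf9 holds none of these letters.

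The other costimulatory receptors differed less. Tnfrsf18, which lies beside Tnfrsf4, had a log2 difference of 0.09 (edgeR, adjusted p = 0.801), Cd27 -0.14 (0.807), Tnfrsf25, the receptor DR3, -0.12 (0.858) and Tnfrsf8, which encodes CD30, -0.15 (0.871). Whether Tnfrsf4 and Tnfrsf18 differed from each other was not tested. Among the ligands, log2 fold changes were 0.13 for Tnfsf8 (CD30L), -0.0020 for Tnfsf9 (4-1BBL), 0.27 for Tnfsf15 (TL1A) and 0.08 for Tnfsf18 (GITRL), with edgeR adjusted p from 0.758 to 0.999. Cd70, the ligand of CD27, had 1 count over the Littermates and 8 over the Experimental libraries.

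**Figure D3:**
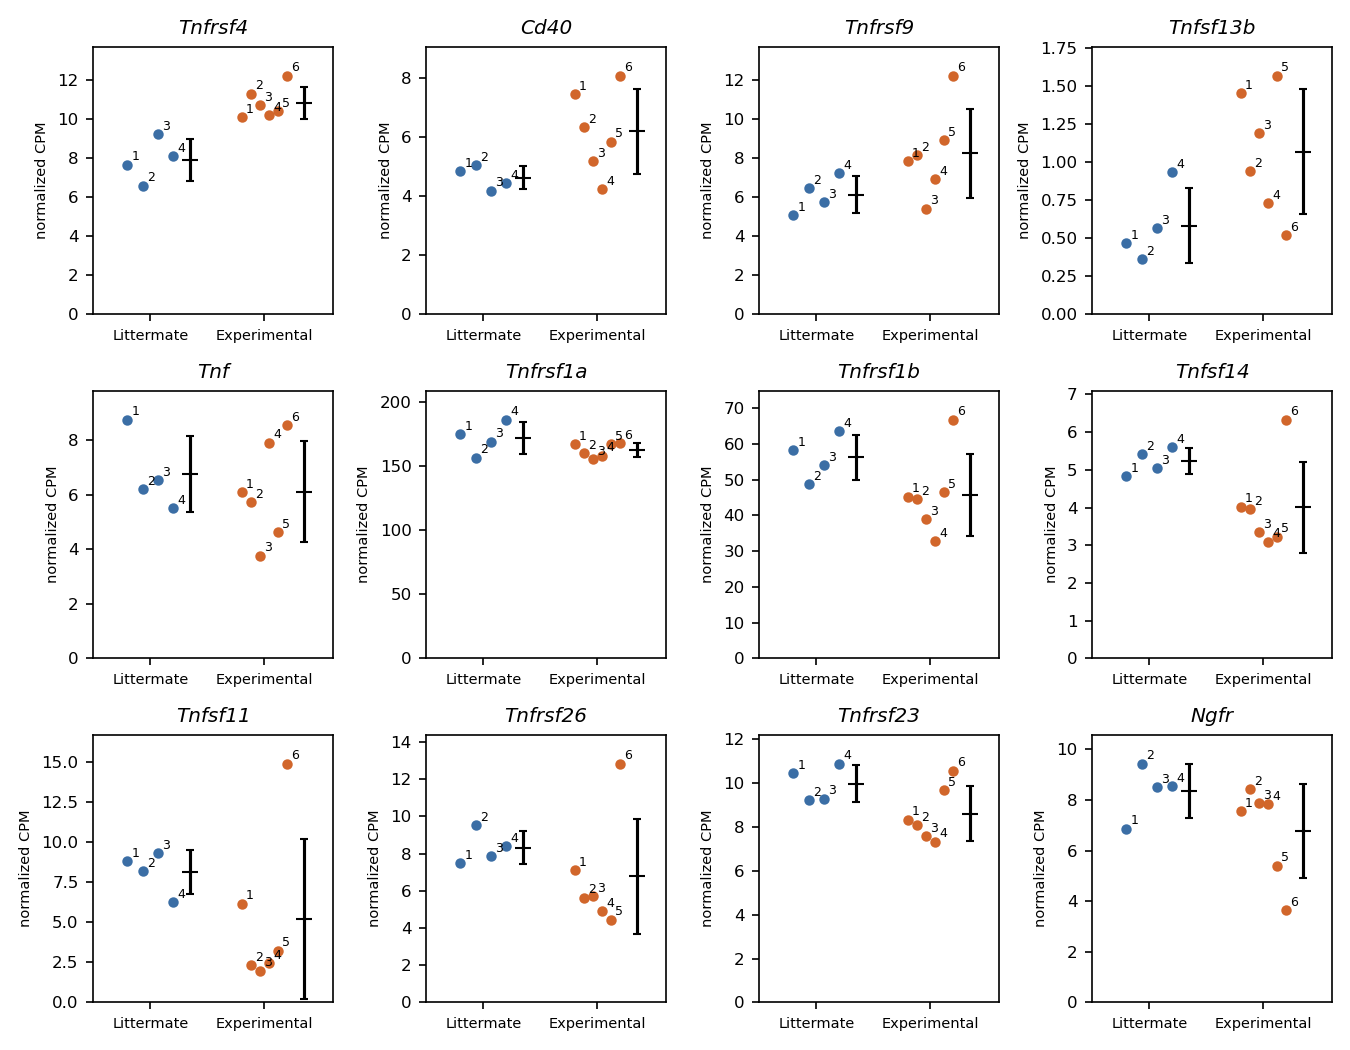
Normalized CPM of 12 members in each library, Littermates (blue) on the left and Experimental mice (orange) on the right of each panel, with 1 point per library labelled by its replicate number, and the group mean and SD in black. Tnfrsf4 separates the groups without overlap, while Tnfrsf1b, Tnfsf11, Tnfsf14 and Tnfrsf26 have 5 Experimental libraries below every Littermate and Experimental 6 above. The share of all genes with this 5-library pattern was not computed.

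The death branch covers ligands and receptors that can start apoptosis, and none of its tested genes passed. Fas, the receptor of Fas ligand, stood at 8.19 ± 0.63 CPM in Littermates (SD, n = 4) against 8.37 ± 0.591 CPM (SD, n = 6), a log2 difference of 0.02 (interval -0.20 to 0.25). Tnfrsf10b, the mouse TRAIL receptor, had a log2 fold change of -0.28 with 5 of 6 Experimental libraries below every Littermate (edgeR, adjusted p = 0.475). Tnfrsf21, which encodes DR6, had -0.12 (edgeR, adjusted p = 0.634) and Tnfsf10, which encodes TRAIL, 0.01 (0.99). Fasl was too low to test, with 25 counts over the Littermates and 66 over the Experimental libraries. Its highest value was 1.39 CPM in Experimental 6, beside 0.245 to 0.698 CPM in the other Experimental libraries and 0.366 to 0.700 CPM in Littermates.

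The mouse decoy TRAIL receptor genes Tnfrsf22 and Tnfrsf23 lie beside Tnfrsf26 on chromosome 7, between 143607685 and 143685872. Tnfrsf22 and Tnfrsf23 share stretches of sequence, so their counts are uncertain where reads of 50 bases match both. Of the windows of 50 bases in Tnfrsf22 transcripts, 17.3% occur in Tnfrsf23 and 27.4% in any other gene. For Tnfrsf23 these shares were 18.0% in Tnfrsf22 and 19.3% in any other gene. The longest identical coding stretch is 102 bases and shows why a short read from it cannot be placed. It lies at chr7:143638426-143640768 in Tnfrsf22 and at chr7:143668582-143670848 in Tnfrsf23 (GRCm38, minus strand, GENCODE M21), and spans an intron in each.
Tnfrsf22 and Tnfrsf23 shared stretch: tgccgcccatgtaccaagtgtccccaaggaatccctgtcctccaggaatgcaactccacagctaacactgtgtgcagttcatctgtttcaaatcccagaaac
Summed over both genes, the level was 16.2 ± 2.05 CPM (SD, n = 4) for Littermates against 14.5 ± 2.4 CPM (SD, n = 6), and ranges of 13.7 to 18.5 and 11.6 to 17.9 CPM overlapped. Singly, log2 fold changes were -0.09 for Tnfrsf22 (edgeR, adjusted p = 0.881) and -0.22 for Tnfrsf23 (0.516).

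Tnfrsf26, a receptor of the same cluster with a death-receptor-like outer part, is named because 1 library decided its value. Littermates had 7.50, 9.51, 7.88 and 8.40 CPM. Experimental libraries 1 to 5 had 7.11, 5.64, 5.70, 4.89 and 4.45 CPM and Experimental 6 had 12.8 CPM. As for Tnfrsf1b and Tnfsf14, 5 libraries lay below every Littermate and 1 above. In the fit the log2 fold change was -0.30 ± 0.26 (SE; edgeR, adjusted p = 0.699), and -0.57 without Experimental 6 (adjusted p = 0.0918).

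Among ligands and receptors of B cell survival, Tnfsf13b had the largest positive log2 fold change of the tested members. Tnfsf13b (ENSMUSG00000031497, chromosome 8, 10006843 to 10035441) encodes BAFF, made by myeloid and stromal cells. It had 0.469, 0.366, 0.568 and 0.934 CPM in Littermates and 1.46, 0.944, 1.19, 0.734, 1.57 and 0.523 CPM in Experimental libraries 1 to 6. Experimental libraries 4 and 6 lay within the Littermate range and 4 lay above it. The log2 fold change was 0.87 ± 0.36 (SE), interval 0.11 to 1.63 (edgeR, adjusted p = 0.353). It was 0.99 without Experimental 6 (edgeR, adjusted p = 0.185) and 0.70 without Littermate 2 (adjusted p = 0.377). It rests on 178 counts in all libraries together, so its precision is that of a low count.

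The first RefSeq promoter window of Tnfsf13b, chr8:10006217-10006516, plus strand, is shown because Tnfsf13b had the largest positive log2 fold change of the tested members. Capitals mark the AP-1 letters TGANTCA, the 1 motif found in it of the 3 reported here.
Tnfsf13b promoter: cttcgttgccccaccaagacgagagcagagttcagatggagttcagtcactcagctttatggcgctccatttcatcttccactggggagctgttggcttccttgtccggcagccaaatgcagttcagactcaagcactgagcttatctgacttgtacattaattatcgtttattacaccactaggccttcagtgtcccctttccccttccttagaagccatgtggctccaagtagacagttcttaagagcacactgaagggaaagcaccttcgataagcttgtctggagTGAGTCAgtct
Tnfsf13, which encodes APRIL, had a log2 difference of 0.03 (edgeR, adjusted p = 0.969) and Tnfrsf13b, the receptor TACI, 0.02 (0.974). The other receptor genes of this branch, Tnfrsf13c (BAFF receptor) and Tnfrsf17 (BCMA), had too few counts to be tested. Tnfrsf13c had 4 counts over the Littermates and 12 over the Experimental libraries, and Tnfrsf17 had 32 and 86. The 5 B and plasma cell markers summed to 1.54 to 8.79 CPM in Littermates and 2.79 to 8.22 CPM in Experimental libraries.

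Tnfsf13 and Tnfsf12 neighbour each other on chromosome 11, between 69682846 and 69695849, and the read-through gene Tnfsfm13 joins them. Of their 50-base windows, 57.3% for Tnfsf13 and 46.8% for Tnfsf12 occur in another gene, so their counts depend on how shared reads were assigned. The antisense gene Tnfsf13os overlaps Tnfsf13 over 221 bases of exon, and without strand marking its reads there cannot be told apart from those of Tnfsf13. Tnfsf13os stood at 1.66 ± 0.284 CPM in Littermates (SD, n = 4) against 1.24 ± 0.181 CPM (SD, n = 6), with 5 of 6 Experimental libraries below every Littermate (edgeR, adjusted p = 0.489).

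The RANK branch held the widest spread of the family. Tnfsf11 (ENSMUSG00000022015, chromosome 14, 78277445 to 78308043) encodes RANKL, the osteoclast and Langerhans cell factor that keratinocytes and lymphocytes make, and is named because of this spread. Littermates had 8.83, 8.20, 9.30 and 6.22 CPM. Experimental libraries 1 to 5 had 6.15, 2.35, 1.98, 2.45 and 3.23 CPM, and Experimental 6 had 14.9 CPM. The 5 libraries lay below every Littermate, Experimental 1 by a narrow margin, and Experimental 6 lay above. The coefficient of variation was 16.6% in Littermates and 96.5% in Experimental libraries, and 52.5% in Experimental 1 to 5. The log2 fold change was -0.69 ± 0.58 (SE; edgeR, adjusted p = 0.696), and -1.37 without Experimental 6 (adjusted p = 0.0759). Its receptor gene Tnfrsf11a stood at 28.4 ± 2.29 CPM in Littermates (SD, n = 4) against 27.2 ± 2.91 CPM (SD, n = 6), which is -0.06 on the log2 scale (interval -0.26 to 0.14). Tnfrsf11b, which encodes the soluble decoy osteoprotegerin, had -0.13 (edgeR, adjusted p = 0.861).

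The TWEAK pair and the ectodermal branch, which act in tissue repair and in hair and gland formation, were bounded closely. Tnfsf12 (TWEAK) had a log2 fold change of -0.19 with 5 of 6 Experimental libraries below every Littermate (edgeR, adjusted p = 0.533). Tnfrsf12a, its receptor, had 0.05 (interval -0.24 to 0.34). Eda, which encodes ectodysplasin, had -0.05, and its receptor Edar -0.06. Eda2r, the receptor of the longer-chain form of ectodysplasin, had 0.16 and Tnfrsf19 0.01 (edgeR, adjusted p from 0.687 to 0.974 over these ectodermal genes). Tnfrsf19 stood at 130 ± 22.4 CPM in Littermates (SD, n = 4) against 131 ± 12.0 CPM (SD, n = 6).

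Ngfr encodes the low-affinity neurotrophin receptor of nerves and Schwann cells. It had 6.87, 9.44, 8.52 and 8.56 CPM in Littermates and 7.55, 8.42, 7.87, 7.83, 5.41 and 3.66 CPM in Experimental libraries 1 to 6. Experimental 5 and 6 lay below every Littermate and the other 4 within their range. The log2 fold change was -0.28 (edgeR, adjusted p = 0.609). The 5 Schwann cell markers, none at 0 in all libraries, summed to 193 to 238 CPM in Littermates, 190 to 226 CPM in Experimental 1 to 5 and 146 CPM in Experimental 6. The part of nerve content in the Ngfr value was not tested.

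Across the family, Experimental 6 stood apart from the other Experimental libraries. It had the highest value of the 6 in 19 of 40 members (47.5%), beside 19.5% of all tested genes. Experimental 4 had the lowest value in 12 members (30%, beside 20.1%) and Experimental 3 in 11 (27.5%, beside 14.6%). The median coefficient of variation of the tested members was 14.5% in Littermates and 21.2% in Experimental libraries, against 13.2% and 11.1% for all tested genes. It was 16.4% for members and 10.5% for all genes in Experimental 1 to 5. In Littermates, Littermate 4 had the highest value in 16 members (40%, beside 27.9%).

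**Figure D4:**
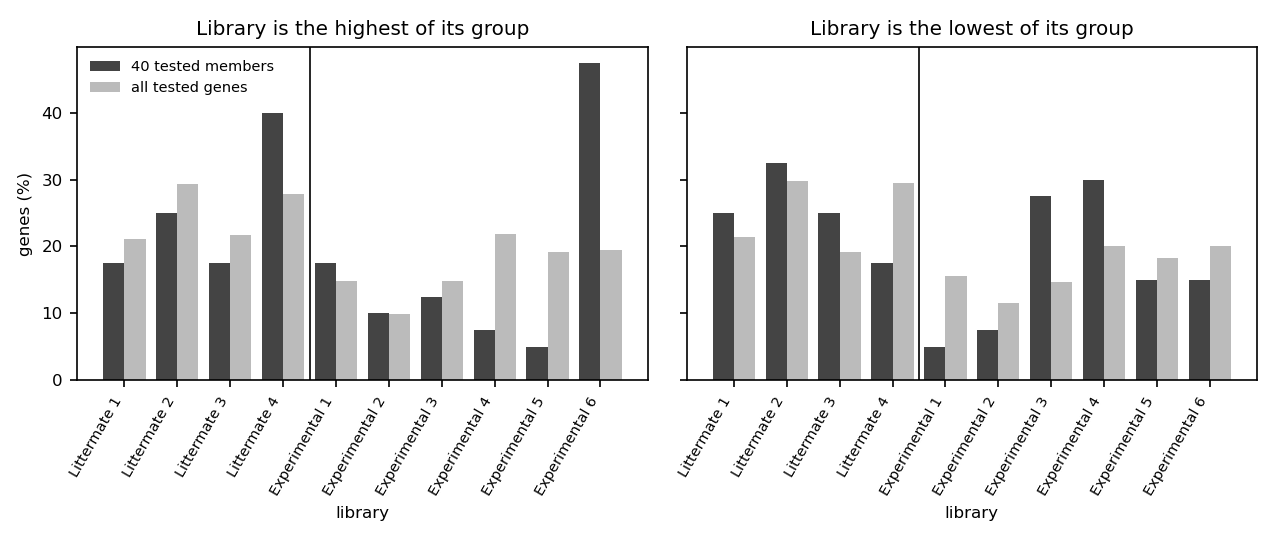
Share of the 40 tested members (dark) and of all 16830 tested genes (grey), in percent, in which each library had the highest (left) or the lowest (right) value of its group. Experimental 6 holds 47.5% of members and 19.5% of all genes.

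Among Experimental libraries, the macrophage, neutrophil, basophil and eosinophil, T cell, mast cell and endothelial marker sums were highest in Experimental 6, and the dendritic, B cell and NK cell sums were not. The 5 macrophage and monocyte markers summed to 1470 CPM there, to 933 to 1240 CPM in Experimental 1 to 5 and to 1170 to 1370 CPM in Littermates. The 5 neutrophil markers summed to 489, 198 to 327 and 294 to 572 CPM in the same order, and the 5 basophil and eosinophil markers to 39.9, 16.9 to 27.6 and 26.6 to 38.7 CPM. T cell markers summed to 47.5, 39.6 to 46.6 and 42.2 to 50.7 CPM, and the 5 endothelial markers to 249, 170 to 245 and 203 to 264 CPM. No marker of these lists was at 0 in all libraries. The part of leukocyte or endothelial content in the members' values was not tested.

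Without Experimental 6, no member passed (edgeR), while 0.168% of all genes did. At an unadjusted p under 0.05, 5 members (12.5%) were then lower in Experimental skin, beside 9.09% of all genes, and 2 were higher, beside 4.52%. The 5 were Tnfsf11, Tnfrsf26, Tnfsf14, Tnfrsf1b and Tnfrsf23. All 5 remaining Experimental libraries lay below every Littermate for 4 members, Tnfrsf1b, Tnfrsf26, Tnfsf11 and Tnfsf14, beside 2.69% of all genes. Without both Littermate 2 and Experimental 6, 6 members (15%) were lower, beside 11.5% of all genes, and 3 were higher, beside 7.87%. Without Littermate 2 alone, 41 members were tested and none passed (edgeR), beside 2.01% of all genes. Tnfrsf4, Cd40 and Tnfrsf12a were then higher at an unadjusted p under 0.05 (7.32%, beside 6.58%) and none were lower (beside 10.6%). Shares of lower members near the share over all genes are no result about the family. The share of all genes with 5 of 6 Experimental libraries below every Littermate was not computed. That pattern in single members is likewise no result about the family.

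**Figure D5:**
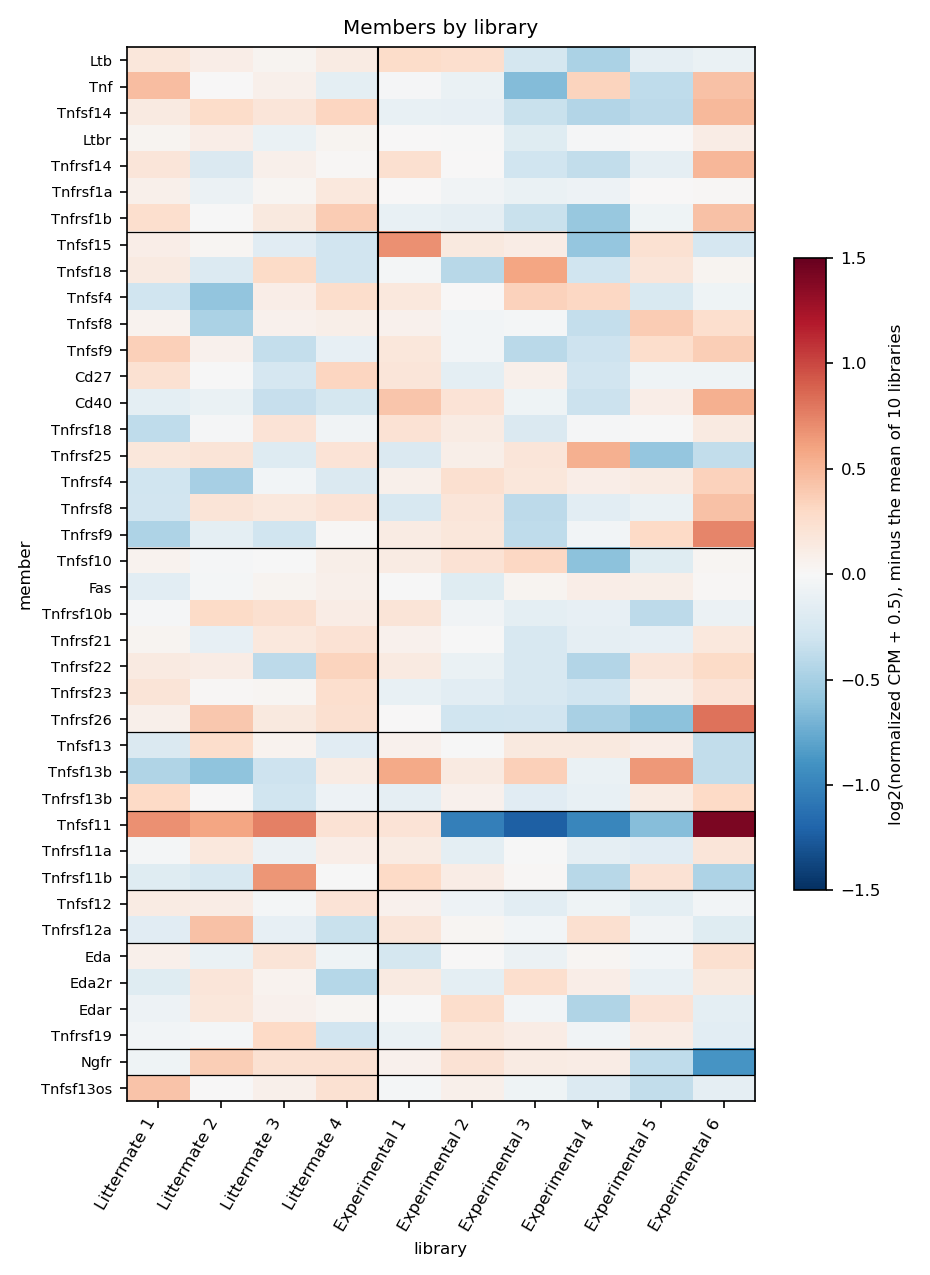
Log2 of normalized CPM plus 0.5 for each tested member, minus its mean over the 10 libraries, with genes grouped by branch and libraries in columns; red is above and blue below the gene's mean. Experimental 6 is high for Tnfsf11 (14.9 CPM), Tnfrsf26 (12.8 CPM) and Tnfrsf9 (12.2 CPM) and low for Ngfr (3.66 CPM).

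Members that neighbour each other in the genome are given side by side. Tnf, Lta and Ltb lie within chromosome 17, 35194439 to 35205351, and the tested pair had log2 fold changes of -0.16 each. Cd27, Ltbr and Tnfrsf1a lie within chromosome 6, 125232622 to 125362484, at -0.14, -0.03 and -0.08, although their levels were 0.957, 41.7 and 64.3 RPKM. Tnfrsf4 and Tnfrsf18 lie within chromosome 4, 156013843 to 156028895, at 0.46 and 0.09. Tnfrsf1b and Tnfrsf8 lie within chromosome 4, 145213463 to 145315164, at -0.29 and -0.15. Tnfsf4, Tnfsf18 and the untested Fasl lie within chromosome 1, 161395409 to 161788495, with 0.38 and 0.08 for the tested pair. Tnfsf12 and Tnfsf13 had -0.19 and 0.03. Exons of Tnfrsf18 overlap the opposite-strand gene Gm16008 over 414 bases, which limits its count in the same way as for Tnfsf13.

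The pathway downstream was read from 73 genes in 5 lists, of which 72 were tested, all but Csf2. None passed (edgeR), beside 0.0178% of all genes. At an unadjusted p under 0.05, 3 were higher (4.17%, beside 3.65% of all genes) and 3 lower (4.17%, beside 8.1%). Among 9 NF-kB subunits and kinases the median log2 fold change was -0.11. Bcl3, a nuclear cofactor of NF-kB, had the lowest p, at 22.2 ± 2.9 CPM in Littermates (SD, n = 4) against 17.1 ± 1.45 CPM (SD, n = 6), with all 6 Experimental libraries below every Littermate (log2 fold change -0.38; edgeR, adjusted p = 0.159). Chuk, the IKK alpha kinase, had all 6 above (0.19, adjusted p = 0.265), and Relb, a subunit of the noncanonical pathway, had -0.11 (0.586).

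Among the 27 adaptors and kinases, median 0.03, the lowest p values were those of Map3k14, the NIK kinase of the noncanonical pathway (-0.22; edgeR, adjusted p = 0.327), Birc2, which encodes the ligase cIAP1 (0.15, 0.484), and Tank, a TRAF binder (0.18, 0.494). The 12 inhibitors had a median of -0.04, with Cyld, a deubiquitinase, at 0.125, Tax1bp1 at 0.12 and Tnip2 at -0.07. Among 19 tested target genes, median -0.06, Tnfaip6, a hyaluronan-binding protein induced by TNF, stood at 12.5 ± 0.265 CPM in Littermates (SD, n = 4) against 15.4 ± 1.79 CPM (SD, n = 6), with all 6 Experimental libraries above (log2 fold change 0.29; edgeR, adjusted p = 0.26). Csf1, the macrophage growth factor, had -0.24 (0.306) and Ccl5, a T cell chemokine, 0.73 (0.313) at 0.469 ± 0.114 and 0.772 ± 0.133 CPM. Among the 5 genes of shedding, Rhbdf2 and Rhbdf1, partners of ADAM17, had -0.16 each and Adam17 itself 0.08. Over the 72 genes, 2 had all Experimental libraries above every Littermate (2.78%, beside 0.761% of all genes) and 1 had all below (1.39%, beside 1.35%).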

How the data were processed

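RNA from the whole ear skin of 10 mice was sequenced as single reads of 50 bases after depletion of ribosomal RNA, per the labels' protocols, which describe no strand marking. Reads were aligned to mm10 and counted with tools that the submitters' processing notes list as STAR 2.0.4b, Subread and featureCounts 1.4.5. Annotation release, strand setting and treatment of reads with several matches were not given in the sources used here. Every deposited file gives the read count per gene, per the file headers. The deposited CPM equal the count over the library total and the deposited RPKM equal that CPM over gene length, as checked on the files, and neither entered a test.

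Counts were tested with edgeR 4.0.16 in R 4.3.3 (TMM factors, filterByExpr by group, robust quasi-likelihood test, two-sided), with group as the only term and Benjamini-Hochberg adjustment over the 16830 genes kept. Normalized CPM use the TMM factors, and normalized RPKM follow from them. Symbols were matched for 97.3% of gene identifiers. The labels give no batch, and replicate numbers are only names. Intervals are at 95%.

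Alternatives were other size factors, filters, DESeq2 1.42.0, limma 3.58.1 voom with quality weights, the replicate number as a block, the Y-linked level as a covariate, a GC correction per library, each library left out, and Littermate 2 and Experimental 6 left out together. The Y-linked level (Ddx3y, Eif2s3y, Kdm5d and Uty summed) was 228 to 301 CPM in Littermates and 282 to 339 CPM in Experimental libraries. With Y-linked RNA in every mouse, this covariate is no adjustment for sex, and it leans with the group. The members, lists and alternatives were chosen with earlier results of these data known. Named with every library's value are Tnf, Tnfrsf1a, Tnfrsf1b, members with an unadjusted p under 0.05 or with groups that do not overlap, and the highest ligand and receptor. From each pathway list the 3 tested genes of lowest p are named. Tnfrsf9, Tnfsf11, Tnfsf14, Tnfrsf26, Ngfr and the 5-library comparisons were described more fully after their values were seen. Promoters and shared transcript windows come from RefSeq GRCm38.p6 and GENCODE M21.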

Additional observations from a re-analysis of the deposited data

Results flagged for a closer look

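By Dixon's criterion, 8 of 80 sets of libraries (40 tested members in 2 groups) held a library far from the others. For independent genes chance gives about 1 in 20, or 4. These genes share their libraries, and the same share over all tested genes was not computed. The 8 are therefore no result about the family. In Experimental 6, Tnfsf11 was 14.9 CPM beside 1.98 to 6.15 CPM in the other Experimental libraries. In the same library Tnfrsf26 was 12.8 CPM beside 4.45 to 7.11 CPM, and Tnfsf14 was 6.33 CPM beside 3.10 to 4.03 CPM. Tnfsf13, which encodes APRIL, was lowest there, at 1.57 CPM beside 2.16 to 2.45 CPM. Fas was lowest in Experimental 2, at 7.26 CPM beside 8.28 to 8.89 CPM. Among Littermates, Tnfsf8 was lowest in Littermate 2 at 1.32 CPM beside 2.11 to 2.18 CPM. Tnfrsf8, the receptor of Tnfsf8, was lowest in Littermate 1 at 0.859 CPM beside 1.35 to 1.4 CPM. Tnfrsf25 was lowest in Littermate 3 at 5.54 CPM beside 7.26 to 7.47 CPM. Thus 4 of the 8 fell in Experimental 6.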

How the results depend on the processing

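Over all genes, edgeR called 3 genes, and 78 with no filter, 227 with DESeq2, 57 with voom and quality weights, 67 with the replicate number as a block, 563 without Littermate 2 and Experimental 6, and 3 to 343 with each library left out. Members that passed numbered 0, and 1 with DESeq2 (Tnfrsf4), 1 without both libraries (Tnfrsf1b) and 0 to 0 with each library left out. For Tnfrsf1b the libraries left out were its lowest Littermate and its highest Experimental library. Members lower at an unadjusted p under 0.05 numbered 0 with edgeR (beside 8.1% of all genes) and 0 with DESeq2 (beside 7.61%). They numbered 1 with no filter (2.17%, beside 5.56%), 3 with voom (7.5%, beside 8.98%) and 5 with the replicate block (12.5%, beside 7.55%). Without both libraries they numbered 6 (15%, beside 11.5%). With each library left out they numbered 0 to 5, with 5 without Experimental 6 (12.5%, beside 9.09%). Members higher numbered 3 (7.5%, beside 3.65%), 4 with DESeq2 (10%, beside 4.22%) and 4 with no filter (8.7%, beside 3.23%). With each library left out 1 to 4 were higher, with 3 without Littermate 2 (7.32%, beside 6.58%) and 2 without Experimental 6 (5%, beside 4.52%). Counts without a share beside them are no result about the members. Members with groups that did not overlap numbered 1, and 1 to 5 with each library left out. The 5 came without Experimental 6, where 1.68% of all genes lay above and 2.69% below, and without Littermate 2 the 3 such members stood beside 3.49% and 5.2%.

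Same-numbered libraries correlated at -0.021 to 0.091 in their deviations from the group means, and differently numbered ones at -0.135 to 0.139. These values show no pairing by replicate number, and shared litters or processing were not tested. Experimental 5 and 6 have no partner and carry no weight in the fit with the replicate block. The median of members was -0.053, 0.012 with no filter on low counts (beside 0.0175 for all genes) and -0.071 to -0.018 with each library left out. The median of the NF-kB list was -0.11, 0.018 with the Y-linked covariate, -0.022 with GC correction and -0.128 to -0.022 with each library left out. For the inhibitors these were -0.043, 0.008, 0.029 and -0.048 to 0.006. The adaptors ranged from 0.023 to 0.068, the targets from -0.105 to 0.021 and the shedding genes from -0.091 to 0.003 with each library left out, and the shedding genes were at -0.111 without both libraries.

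A sign change in at least 1 of 19 alternatives was seen for 18 members, of which the largest log2 fold change in size was 0.156, and for 22 none was seen. Values that changed sign were, with a 1 CPM filter, Tnfrsf14 -0.005; for Tnfsf9, 0.016 with DESeq2, 0.003 with DESeq2's size factors and 0.012 with no filter; with GC correction, Fas -0.024, Tnfsf9 0.030, Tnfrsf1a 0.003, Tnfsf10 -0.048, Ltbr 0.120 and Tnfrsf25 0.010; without both libraries, Tnfrsf14 -0.188, Tnfrsf13b -0.037, Edar 0.032 and Tnfsf8 -0.063. With the Y-linked covariate they were Tnfrsf12a -0.044, Tnfrsf13b -0.005, Tnfsf9 0.003, Tnfrsf19 -0.114, Tnfsf13 -0.095, Tnfrsf22 0.014, Tnfrsf25 0.000, Eda2r -0.019 and Tnfsf18 -0.303. With voom they were Tnfrsf19 -0.008, Fas -0.016, Tnfrsf14 -0.062, Edar 0.016 and Tnfsf18 -0.147, and with the replicate block Tnfrsf13b -0.075, Tnfrsf14 -0.120, Tnfrsf25 0.058, Tnfsf8 -0.008 and Tnfsf18 -0.006. With each library left out the ranges were -0.104 to 0.021 for Eda, -0.137 to 0.023 for Edar, -0.017 to 0.074 for Fas, -0.062 to 0.013 for Ltbr, -0.238 to 0.152 for Tnfrsf11b, -0.031 to 0.245 for Tnfrsf12a, -0.069 to 0.151 for Tnfrsf13b, -0.116 to 0.079 for Tnfrsf14, -0.059 to 0.138 for Tnfrsf19, -0.226 to 0.026 for Tnfrsf22, -0.057 to 0.110 for Tnfsf10, -0.038 to 0.159 for Tnfsf13, -0.135 to 0.227 for Tnfsf18, -0.018 to 0.202 for Tnfsf8 and -0.144 to 0.198 for Tnfsf9. The causes were not tested. Tnfsf13b and Tnfsf4 have no value under the 1 CPM filter and no adjusted p in DESeq2. At these depths 6 members had too few counts to be tested.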
